A study of Mus musculus with 3 samples.

Results

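The insulin-like growth factor (IGF) system was followed in kidney rudiments of mouse embryos that lack Fgfrl1, a receptor of the fibroblast growth factor family without a kinase domain. The 9 genes described are the ligands Igf1 and Igf2, the receptors Igf1r and Igf2r, and the binding proteins Igfbp2, Igfbp3, Igfbp4, Igfbp5 and Igfbp7. Every probe that the array files assign to these names was taken, which gave 19 of the 41174 probes on the array. The rule for taking probes reads the gene name and not the signal. Of the 9 genes, 6 have several probes and 3 have 1 probe. Probes of the same gene are numbered here from the brightest to the dimmest, and they hybridized to the same RNA, so they are not replicates. For Igf1 probe 3, Igf1r probe 4 and Igfbp3 probes 2 and 3 the files name a sequence record outside RefSeq. Whether these probes detect the same transcripts as the others of their gene was not tested.

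On each of 3 arrays, RNA of Fgfrl1-/- kidneys carried the green dye Cy3 and RNA of wildtype kidneys the red dye Cy5. Both groups were E12.5 embryos of strain C57BL/6, taken as littermates, and each RNA came from a pool of 6 to 9 rudiments, of which 600 ng were labelled. Each group therefore held 3 pools, and functional Fgfrl1 was missing from every tissue of the mutant embryo, not from the kidney alone. The dyes were swapped on 0 arrays, so a dye effect and a genotype effect cannot be told apart. A pool of whole rudiments is a bulk sample, in which a smaller number of cells of a type and less RNA per cell cannot be told apart.

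IGF1 and IGF2 are secreted growth factors that act through IGF1R, a receptor tyrosine kinase coupled to the PI3K, AKT and MAP kinase pathways. IGF2R, the cation-independent mannose 6-phosphate receptor, takes up IGF2 for breakdown in lysosomes and lowers its supply. The IGF binding proteins hold the ligands in the extracellular space, where they can block, store or deliver them. In the mouse fetus IGF2 is a major growth factor of the mesenchyme, and its gene is imprinted and read from the paternal allele, whereas Igf2r is read from the maternal allele.

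The sequences of 4 probes that hold an open reading frame are shown. Other probes, such as Igf1r probe 2, hold one too, so a frame of this length does not show that a probe is coding. Each probe is 60 bases long and is given 5′ to 3′ as in the array files. Capitals mark the cysteine codons TGT and TGC of an open reading frame or, for Igfbp2, the stop codon TAA at the end of the frame.

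Igf1 probe 2: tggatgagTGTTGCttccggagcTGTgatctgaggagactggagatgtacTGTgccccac

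Igfbp3 probe 2: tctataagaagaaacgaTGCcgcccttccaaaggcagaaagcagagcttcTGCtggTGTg

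Igfbp4 probe 2: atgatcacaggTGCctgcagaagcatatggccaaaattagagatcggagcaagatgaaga

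Igfbp2: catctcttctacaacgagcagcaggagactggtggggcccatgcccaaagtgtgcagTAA

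The Igf1 probe holds 4 in-frame cysteine codons. IGF1 is folded by disulfide bonds between cysteines that it shares with insulin. The Igfbp3 probe holds 3 and the Igfbp4 probe 1. Cysteines brace the globular ends of the binding proteins, but where in the proteins these codons fall was not annotated. The Igfbp2 probe ends with the stop codon of its frame. On mm8, the build of the array files, these 4 probes lie at chr10:87343472-87343531, chr11:7108469-7109478, chr11:98864367-98864426 and chr1:72785310-72785369. The Igfbp3 interval covers 1010 bases, more than the probe itself. Whether these or the other probes lie in coding exons or untranslated regions was not annotated here, since no gene models of mm8 were used.

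None of the 19 probes passed limma's moderated test with Benjamini-Hochberg adjustment over all probes, at an adjusted p below 0.05. The smallest absolute log2 ratio that passed anywhere on the array was 0.53, which only Igfbp5 probe 1 of the 19 exceeded. A miss therefore does not show that a gene was unchanged. Over the whole array, 0.687% of the probes passed, 0.289% with a higher and 0.398% with a lower level in Fgfrl1-/- kidneys. These are 119 probes higher and 164 lower, which became 2 and 91 with median centring of the arrays in place of loess and 22 and 60 with quantile normalization. With an offset of 0, with the ratios of the scanner software, and without array 2 or without array 3, 0 probes on the array passed in either direction, whereas 3494 higher and 4172 lower passed without array 1. Without adjustment, 4 of the 19 probes had a limma p below 0.05, namely Igfbp5 probe 1, Igf2 probe 1, Igf1r probe 2 and Igfbp2, against 15.9% of all probes. The mean log2 ratio of Fgfrl1-/- over wildtype was above 0 for 13 probes and below 0 for 6. The median over the 19 probes was 0.10 on the log2 scale, against 0.0037 over all probes, and with median centring it was -0.11. The sign was the same on all 3 arrays for 6 of 19 probes, against 38.3% of all probes. A difference of at least 2-fold was found for 59 probes on the array and for 0 of the 19.

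**Figure D1:**
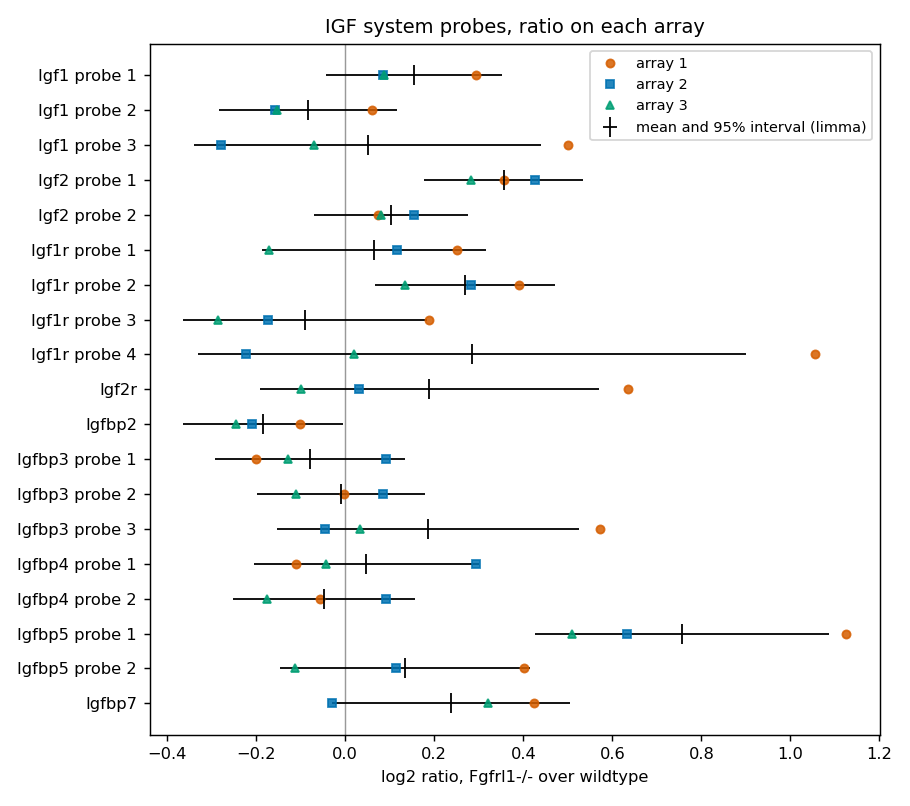
Log2 ratio of Fgfrl1-/- over wildtype on the x axis for each of the 19 IGF system probes, with 1 point per array, the mean as a vertical tick and the 95% interval from limma as a line. Igfbp5 probe 1 lies farthest to the right, with 0.51 to 1.13 on the 3 arrays, and array 1 stands apart from the other arrays for Igf1r probe 4 and Igf2r. The signs of Igf2, Igf2r, Igf1r probe 1, Igfbp4 probe 1 and Igfbp3 probe 2 turn with median centring in place of loess.

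The arrays are not alike. Over all probes, the log2 ratios of arrays 2 and 3, which share a slide, correlated with r = 0.713, whereas array 1, on another slide, correlated with them with r = 0.106 and r = 0.222. Between 57.2% and 80.2% of the probes were well above background in a channel. The Fgfrl1 probe itself had log2 ratios of -1.21, -1.51 and -1.83 and fell by 1.52 on the log2 scale (adjusted p = 0.0332, limma), the direction that the labels give on all arrays. Of the 19 IGF system probes, 18 were well above background in every channel, and the exception was Igfbp3 probe 3, on 1 array in the Fgfrl1-/- channel. No spot of these probes was saturated, and 10 that the scanner software marked as outliers were dropped.

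The ligands are taken first. Igf2 was measured by probes at chr7:142460185-142460245 and chr7:142460600-142460659. The log2 level of probe 1, which is spotted 10 times on each array, was 16.54, 16.17 and 16.03 in Fgfrl1-/- pools, given in the order of the arrays, and 16.18, 15.75 and 15.74 in wildtype pools. On each array the Fgfrl1-/- pool was the higher, although the groups overlap across arrays. The log2 ratios of 0.36, 0.43 and 0.28 gave a mean of 0.36 ± 0.072 (SD, n = 3), a 1.28-fold difference with a 95% interval of 0.18 to 0.53 on the log2 scale, but median centring turned the mean to -0.24. The adjusted p of limma was 0.100. The spots of the probe on an array spread with an SD of 0.041 to 0.11. Probe 2 lay closer to 0, at 14.23, 14.20 and 14.21 in Fgfrl1-/- and 14.15, 14.05 and 14.13 in wildtype pools. These levels do not overlap, but the mean ratio was only 0.10 ± 0.044 (adjusted p = 0.560, limma) and became -0.38 with median centring.

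The unnormalized signals of Igf2 run in different directions between arrays. For probe 1 they were 69126 in the Fgfrl1-/- and 58878 in the wildtype channel of array 1, 46428 and 99355 on array 2, and 59892 and 84429 on array 3. The red wildtype channel was thus the brighter on arrays 2 and 3, and the sign of the ratio there rests on the correction for the brightness of the channels.

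Igf1 had 3 probes with mean log2 ratios between -0.08 and 0.15, none of which passed (adjusted p of 0.431, 0.705 and 0.929, limma). Probe 1, at chr10:87360570-87360629 and also spotted 10 times, had log2 levels of 9.18, 8.49 and 8.41 in Fgfrl1-/- and 8.89, 8.40 and 8.32 in wildtype pools. The ratio was above 0 on each array, with a mean of 0.15 ± 0.12 (SD, n = 3) and an interval of -0.04 to 0.35, or a mean of 0.023 with median centring. For probe 2, whose sequence is given above, the levels were 8.76, 8.002 and 8.05 against 8.70, 8.16 and 8.21, and the groups overlap. Probe 3, at chr10:87292436-87292495, was dim and had ratios of 0.50, -0.28 and -0.07. The probes of Igf1 thus have no common sign, and the interval of probe 1 reaches 1.28-fold at its upper end.

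Of the receptors, Igf1r is covered by 4 probes on chromosome 7. Probe 1, at chr7:68105625-68105684, had log2 levels of 12.00, 12.10 and 11.88 in Fgfrl1-/- pools and 11.75, 11.98 and 12.05 in wildtype pools, a mean log2 ratio of 0.06 ± 0.22 that turned to -0.29 with median centring. Probe 2, at chr7:68100183-68100242, had 10.29, 10.03 and 9.999 in Fgfrl1-/- pools and 9.90, 9.75 and 9.87 in wildtype pools, with no overlap. Its mean ratio was 0.27 ± 0.13 (SD, n = 3), a 1.20-fold difference with an interval of 0.07 to 0.47 and an adjusted p of 0.198 (limma), and median centring took it to 0.032. Probes 3 and 4, at chr7:68101127-68101186 and chr7:68061142-68061201, gave means of -0.09 and 0.28 (adjusted p = 0.774 and 0.668, limma). The value of probe 4 came from array 1, where the ratio was 1.06, whereas it was -0.22 and 0.02 on the other arrays, and without array 1 the mean was -0.10. Thus 1 of the 4 probes of Igf1r had levels that separate the groups, and the means of the 4 ran from -0.09 to 0.28.

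Igf2r was measured by 1 probe, for which the files list only an 11-base interval, chr17:12525745-12525755. Its log2 level was 13.07, 12.30 and 12.09 in Fgfrl1-/- pools and 12.44, 12.27 and 12.19 in wildtype pools. Array 1 alone stood apart, with a ratio of 0.64 against 0.03 and -0.10. The mean was 0.19 ± 0.39 (SD, n = 3; adjusted p = 0.639, limma), and it turned to -0.034 without array 1 and to -0.19 with median centring.

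Igfbp5, a binding protein that attaches to the extracellular matrix, showed the largest difference among the 19 probes. Probe 1, at chr1:72791462-72791521, had log2 levels of 13.50, 13.00 and 13.03 in Fgfrl1-/- kidneys against 12.38, 12.37 and 12.52 in wildtype kidneys. Every Fgfrl1-/- pool lay above every wildtype pool. Of the 19 probes, 3 had levels that did not overlap, all higher in Fgfrl1-/- kidneys, against 6.76% of all probes in that direction and 7.18% in the other. The log2 ratios were 1.13, 0.63 and 0.51, with a mean of 0.76 ± 0.33 (SD, n = 3), or 1.69-fold with a 95% interval of 1.34 to 2.12-fold. Of all probes on the array, 99.8% had a lower ratio. The unadjusted limma p of 0.00165 gave an adjusted p of 0.0844 over the 41174 probes, which misses the threshold. When only 1 probe for each of the 18827 genes with a RefSeq match was tested, the adjusted p was 0.0415 for the same ratio, so the call depends on the number and kind of probes tested together.

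The size for Igfbp5 differed between array 1 and the other arrays, where slide, pools and software version cannot be told apart. Array 1 alone had a ratio of 1.13. On the slide with arrays 2 and 3 the mean was 0.57, with an adjusted p of 0.000279 (limma on both arrays), but 18.6% of all probes passed in that fit. Before normalization, the signals of probe 1 were 8857 in the Fgfrl1-/- and 3932.5 in the wildtype channel on array 1, 5651 and 9249.5 on array 2, and 8131 and 8843.5 on array 3. As for Igf2, the higher level on arrays 2 and 3 appears after the correction of the channels, and with median centring the mean ratio was 0.35.

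The other Igfbp5 probe did not share this difference. It lies at chr1:72793999-72794058 and was dim, with log2 levels of 6.84, 6.85 and 6.69 in Fgfrl1-/- pools and 6.44, 6.73 and 6.80 in wildtype pools. The groups overlap, and the mean ratio was 0.13 ± 0.26 (SD, n = 3; adjusted p = 0.655, limma). The unnormalized signals were 100, 56 and 56 in the Fgfrl1-/- channel and 83, 102 and 95 in the wildtype channel. The offset of 50 that was added to every signal pulls the ratio of such a dim probe toward 0. With an offset of 0 the mean was 0.27 (adjusted p = 0.655, limma), without background subtraction 0.11, and without array 1 0.00064. The cause of the gap between the probes was not tested.

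**Figure D2:**
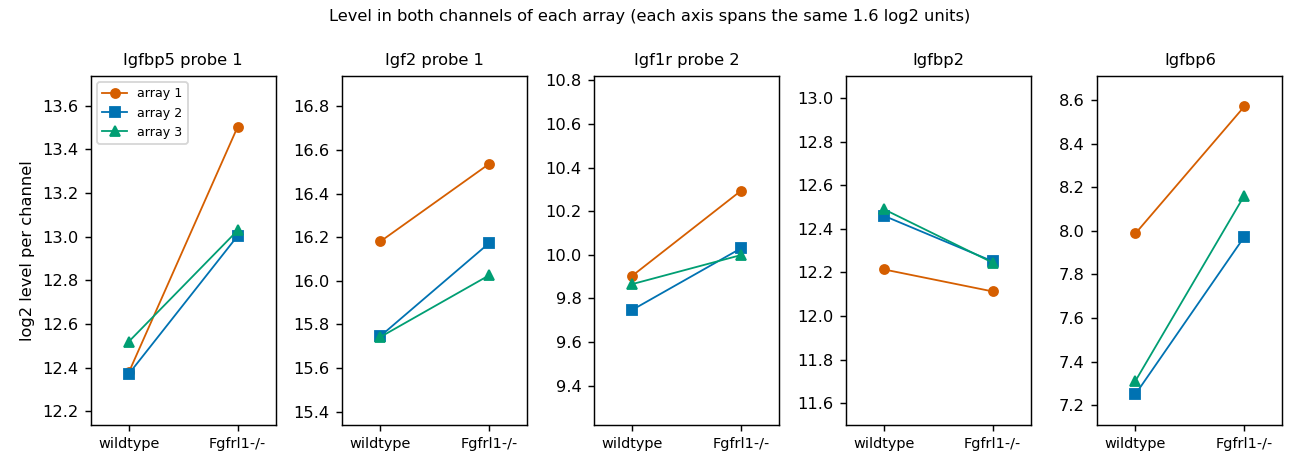
Log2 level on the y axis in the wildtype and the Fgfrl1-/- channel of each array, joined by a line per array, for the probes with an unadjusted limma p below 0.05 and for Igfbp6. The levels of Igfbp5 probe 1 and Igf1r probe 2 separate the groups, Igf2 probe 1, Igfbp2 and Igfbp6 overlap between groups but keep their direction on each array, and with median centring Igf2 probe 1 turns its direction.

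Igfbp2 lies beside Igfbp5 on chromosome 1, with 0 protein-coding genes between them in the RefSeq annotation, and its probe leaned the other way. The protein binds IGF2 and is abundant in fetal tissues. Log2 levels were 12.11, 12.25 and 12.24 in Fgfrl1-/- pools and 12.21, 12.46 and 12.49 in wildtype pools, the Fgfrl1-/- pool being the lower on each array. The mean log2 ratio was -0.18 ± 0.075 (SD, n = 3) with an interval of -0.36 to -0.0046, a 1.14-fold lower level. With median centring it was -0.56, and with the ratios of the scanner software -0.39. The adjusted p of 0.305 (limma) misses the threshold. On the slide with arrays 2 and 3 the mean was -0.23 (adjusted p = 0.0473, limma on both arrays), in a fit where 18.6% of all probes passed.

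Igfbp3, the main carrier of IGFs in the blood after birth, had 3 probes on chromosome 11 with mean log2 ratios of -0.08, -0.01 and 0.19 (adjusted p = 0.744, 0.976 and 0.595, limma). Probe 1, at chr11:7106594-7106653, had levels of 10.73, 10.01 and 9.73 in Fgfrl1-/- pools and 10.93, 9.92 and 9.86 in wildtype pools. Both groups were highest on array 1, and they overlap. The levels of probe 2 stayed between 6.46 and 6.64 in all 6 channels. Probe 3, at chr11:7111815-7111874, was at 6.97 in the Fgfrl1-/- channel of array 1 and between 6.40 and 6.45 in the other channels.

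Igfbp4, which mostly restrains IGF action and is cleaved by the protease PAPPA, had mean log2 ratios of 0.05 and -0.05 for its probes (adjusted p = 0.890 and 0.853, limma). The first, at chr11:98868110-98868169, had levels of 10.71, 10.39 and 10.32 in Fgfrl1-/- and 10.81, 10.10 and 10.37 in wildtype pools, and its sign turned with median centring. The second had 9.56, 8.60 and 8.55 against 9.62, 8.51 and 8.73. Groups overlap for both probes, and their intervals of -0.21 to 0.30 and -0.25 to 0.16 leave room for a modest difference in either direction.

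Igfbp7 differs from the others in its weak affinity for IGFs. Its probe, at chr5:78424105-78424164, had log2 levels of 9.73, 9.47 and 9.45 in Fgfrl1-/- pools and 9.30, 9.499 and 9.13 in wildtype pools. The ratio was above 0 on arrays 1 and 3, at 0.42 and 0.32, and -0.03 on array 2, with a mean of 0.24 ± 0.24 (SD, n = 3; adjusted p = 0.370, limma) that became 0.034 with median centring.

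**Figure D3:**
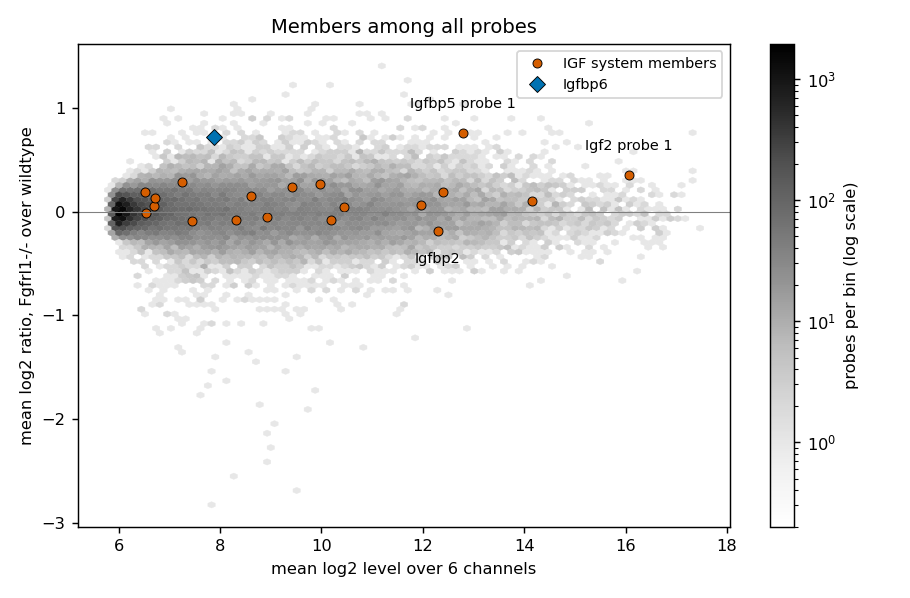
Mean log2 ratio of Fgfrl1-/- over wildtype on the y axis against the mean log2 level over the 6 channels on the x axis. Grey bins count all 41174 probes on a log scale, orange circles are the 19 IGF system probes and the blue diamond is Igfbp6. Igfbp5 probe 1 stands at the upper edge of probes of its brightness, whereas the other 18 probes lie between -0.18 and 0.36, and the sign of the brightest, Igf2 probe 1, turns with median centring.

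The rest of the IGF system was followed with a list of 17 further genes, all of them on the array with 27 probes, of which 6 genes had no probe well above background in every channel. The list holds the remaining binding proteins, the insulin genes and their receptors, the proteases and stanniocalcins that govern binding protein cleavage, the RNA-binding proteins named after Igf2, and H19, which is described with the imprinted genes. Of the 27 probes, 1 rose and 0 fell, and the median log2 ratio was -0.00073. The probe that rose belongs to Igfbp6, a binding protein that prefers IGF2 to IGF1. It lies at chr15:101977366-101977426 and had log2 levels of 8.57, 7.97 and 8.16 in Fgfrl1-/- pools and 7.99, 7.25 and 7.31 in wildtype pools. The lowest Fgfrl1-/- level, on array 2, lay just under the wildtype level of array 1, so that the groups overlap, while the ratio was above 0 on each array. The log2 ratios of 0.58, 0.72 and 0.85 gave a mean of 0.72 ± 0.13 (SD, n = 3), or 1.64-fold, with an adjusted p of 0.0425 (limma). Without array 2 or without array 3, where no probe on the array passed, the adjusted p was 0.348 and 0.476, and the call was also lost under 8 of the other alternatives. The mean itself stayed between 0.65 and 1.11.

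Of a list of 9 stromal genes with 18 probes, 3 probes rose and 0 fell, and the median over the brightest probe of each gene was 0.41, or 0.091 with median centring. The array medians of the list were 0.90, 0.75 and 0.21, against ratios of 1.13, 0.63 and 0.51 for Igfbp5 probe 1 and 0.58, 0.72 and 0.85 for Igfbp6. The summed level of a list adds the unlogged levels of the brightest probe of each gene, so that bright probes weigh most. For the stromal list it was 16.70 to 17.08 in Fgfrl1-/- and 16.18 to 16.20 in wildtype pools on the log2 scale. Foxd1, the transcription factor that marks the cortical stroma, had ratios of 0.90 and 0.78 for its probes (adjusted p = 0.0570 and 0.0419, limma). Pdgfra, a growth factor receptor of stromal cells, had 1.02 for its brighter probe and 0.17 for the other (adjusted p = 0.0274 and 0.448, limma). By contrast, Pdgfrb had -0.25 (adjusted p = 0.344, limma). The remaining probe that rose was of Col1a1, which was named after its value was seen. This probe is the brightest of the list and weighs most in the sum. Its levels were 15.95, 15.71 and 15.45 in Fgfrl1-/- and 15.005, 14.77 and 14.82 in wildtype pools. The paper also measured Col1a1 by qPCR at the same age and did not find it raised. The same held for Tcfcp2l1 and Cxcl12, the other genes higher on its arrays that it tested, whereas most of the lowered genes were lower by qPCR too. Igfbp5 and Igfbp6 have no qPCR value there. No gene of the stromal list was below background. The part of these cells in the values of Igfbp5 and Igfbp6 was not tested.

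Other marker lists place the kidney pools. Of the 6 renal vesicle genes, 4 had a probe that fell, and the summed log2 level was 10.70 to 11.35 in Fgfrl1-/- against 12.54 to 12.65 in wildtype pools. The 7 cap mesenchyme genes were all measured above background, with 1 probe that fell, and so were all but 1 of the 9 ureteric epithelium genes found, with 1 probe higher and 1 lower and a median of 0.34 over the brightest probes. Of the 4 macrophage genes found, 0 probes passed, with a median of 0.53 over the brightest probes, array medians of 0.78, 0.42 and 0.33, and summed levels of 10.49 to 11.13 against 10.10 to 10.38. The 7 endothelial genes found had 0 probes past the test and summed levels of 13.36 to 13.84 against 13.43 to 13.70. For the erythroid, steroidogenic, skeletal muscle, cartilage and neural lists 0 probes passed. The muscle list nevertheless differed between pools, with summed levels of 9.27 to 11.04 in Fgfrl1-/- and 9.06 to 11.15 in wildtype pools. Its array medians were -0.11, 0.57 and 0.15. The part of such tissue in the IGF values was not tested.

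Signalling below the receptors was followed with 24 genes found and 56 probes, from the insulin receptor substrates through PI3K and AKT to mTOR and FOXO. None of the 56 probes passed, and their median log2 ratio was -0.0076. Frap1, the older symbol of the kinase gene Mtor, had ratios of -0.54, -0.48 and -0.62 for the dimmer of its probes, with a mean of -0.55 (adjusted p = 0.0527, limma). The brighter probe had -0.15, 0.36 and 0.28 with a mean of 0.16 (adjusted p = 0.595, limma), so the probes of Frap1 disagree in sign. Akt2, a kinase that mediates insulin action on glucose uptake, had 0.39, 0.51 and 0.33 with a mean of 0.41 for the brighter of its probes (adjusted p = 0.0881, limma) and a mean of 0.12 for the other. Pik3r1, a regulatory subunit of PI3K, had a mean of 0.40 for the probe with the largest ratio (adjusted p = 0.314, limma), with 0.88 on array 1 against 0.10 and 0.22. Its brightest probe had a mean of 0.12 and the others 0.34 and 0.04.

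Igf2 belongs to a set of imprinted genes that govern fetal growth, and 14 of them were found with 26 probes. None of the 26 passed. The median log2 ratio was 0.25, with array medians of 0.36, 0.20 and 0.16, and it became -0.059 with median centring. H19, the noncoding neighbour of Igf2, had ratios of 0.70, 0.67 and 0.40 with a mean of 0.59 for the probe with the larger ratio (adjusted p = 0.0661, limma), or 0.14 with median centring, and a mean of 0.25 for its brighter probe. Cdkn1c, an inhibitor of the cell cycle, had 0.58, or -0.012 with median centring, and Gtl2, the older symbol of the noncoding gene Meg3, had 0.58 for the probe with the largest ratio (adjusted p = 0.115 and 0.124, limma). The other probes of Gtl2 had means of 0.54, 0.35 and 0.28. Dlk1, a membrane protein related to the Notch ligands, had 0.48, 0.56 and 0.35 with a mean of 0.47 for its brighter probe (adjusted p = 0.0778, limma), or 0.012 with median centring, and a mean of 0.44 for the other.

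**Figure D4:**
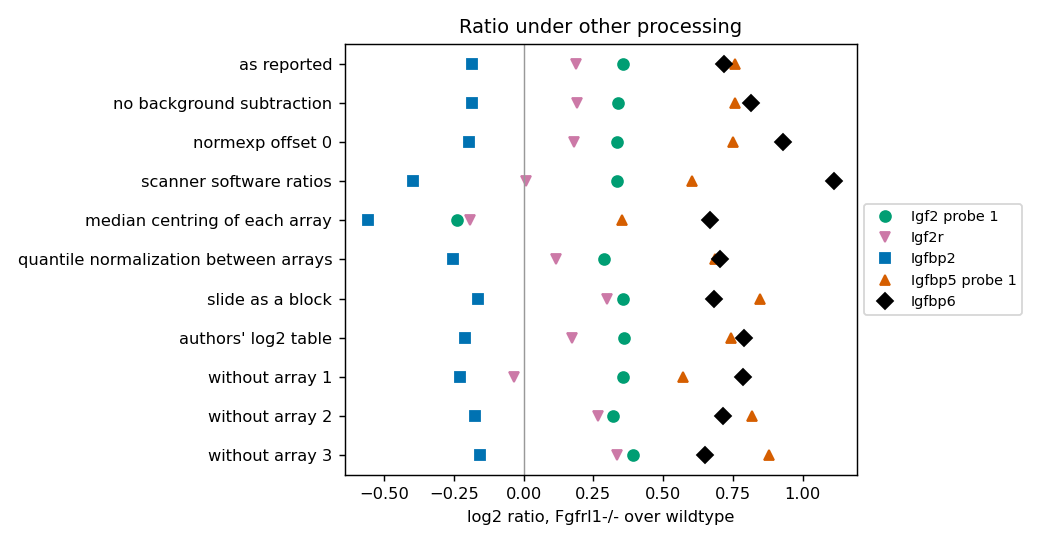
Mean log2 ratio of Fgfrl1-/- over wildtype on the x axis for 5 probes under the processing as reported and 10 alternatives on the y axis. Igfbp5 probe 1 stays between 0.35 and 0.88, Igfbp6 between 0.65 and 1.11 and Igfbp2 below 0, whereas median centring turns Igf2 probe 1 and Igf2r, and Igf2r turns without array 1.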

How the data were processed

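The arrays had been read with Agilent Feature Extraction. Its version was 9.5.3.1 in the header of array 1 and 10.5.1.1 in those of the other arrays. The deposited intensity values are median spot brightness and local background per channel, and the deposited log10 ratio is that of the scanner software, red over green. The authors also deposited a log2 ratio per probe and array. Its direction, Fgfrl1-/- over wildtype, was taken from its correlation with the scanner ratios turned the same way (r = 0.705 to 0.718), and its background correction and normalization are not given in the sources used here. Its column medians were -0.018, 0 and 0.003.

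Median signals were corrected with normexp (offset 50) and normalized by loess within each array, with control spots at weight 0, in limma 3.58.1 and R 4.3.3. Outlier spots, as flagged by the software, were removed, and spots of a probe were averaged. The log2 ratio was fitted with lmFit and eBayes and tested against 0 on both sides, with the pools of an array paired, for 41174 probes. The threshold was an adjusted p of 0.05. Levels were scaled by Aquantile after loess and compared within probes, or as sums over the same probes of a list. A log2 ratio of channels with an offset understates differences of dim probes. Nothing tied the replicates of a group to separate litters, so p-values measure the spread between these 3 pairs of pools. The number of arrays limits the precision. Gene names and sequences are those of the file of array 1, joined to the others by identical feature numbers and probe names. After the main fit, the same fit was run on simulated ratios. Their spreads were taken from the data, but their arrays were drawn independently, unlike the correlated arrays of the data. Every member probe was named. Of the pathway lists, genes with a probe past the test were named or, where there was none, the 4 with the largest ratio among those above background. Of the marker lists the first 3 genes at most were named, except that Col1a1 was added after its value was seen. A signalling gene that this rule names is not reported here. Members and lists were chosen with earlier results of these data known.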

Additional observations from a re-analysis of the deposited data

How the results depend on the processing

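The ratios were recomputed with other background corrections, scalings, filters, models and the deposited log2 table, without each array in turn, and, chosen after seeing the data, over 1 probe per RefSeq gene. The number of IGF system probes that passed as higher was 9 with the slide as a block, where 25% of all probes passed on 1 residual degree of freedom, and 1 over RefSeq genes, where 3.86% of all passed. It ranged from 0 to 2 without 1 array, as did the number that passed as lower, and both were 2 without array 1. The fit of separate channels linked the pools of an array by a single correlation for all probes (0.452) in place of their ratio. It left 0 of 19 probes past the test, with 0.76 for Igfbp5 probe 1 (adjusted p = 0.0532, limma). In this fit Igfbp6 lost its call (adjusted p = 0.0928, limma). A random slide effect could not be fitted.

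Without array 1, Igf2 probe 1 (0.36), Igfbp5 probe 1 (0.57), Igfbp2 (-0.23) and Igf1r probe 3 (-0.23) passed, 4 of 19 probes against 18.6% of all. Median centring reversed Igf2 probe 1 (-0.24) and probe 2 (-0.38), Igf1r probe 1 (-0.29), Igf2r (-0.19), Igfbp3 probe 2 (0.081), Igfbp4 probe 1 (-0.22), Cdkn1c (-0.012) and the median of the imprinted genes (-0.059). With 1 array left out, the sign turned within the range for Igf1 probe 3 (-0.17 to 0.22), Igf1r probe 1 (-0.028 to 0.18), probe 3 (-0.23 to 0.0070) and probe 4 (-0.10 to 0.54), Igf2r (-0.034 to 0.33), Igfbp3 probe 2 (-0.056 to 0.041) and probe 3 (-0.0071 to 0.30), and Igfbp4 probe 1 (-0.077 to 0.13) and probe 2 (-0.12 to 0.017). Scanner ratios reversed Igfbp3 probe 1 (0.0073) and Igfbp4 probe 2 (0.061), the mean of a gene's probes reversed Igfbp3 (0.033) and Igfbp4 (-0.00015), and an offset of 0 reversed Igf1 probe 3 (-0.0015). The causes were not tested. Igfbp5 probe 1 kept its direction under all 17 alternatives. Those that change only the variances or the probes tested together leave its ratio as reported, so they could not turn it.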
